A study of Mus musculus with 12 samples.

Results

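Immunity-related GTPases (IRGs) and guanylate-binding proteins (GBPs) are GTP-binding proteins that mouse cells make in response to interferon-gamma. Their RNA was followed here in murine neuroblastoma tumors treated with high intensity focused ultrasound (HIFU), focused sound waves that break up tissue. The genes were listed by symbol as Igtp, Iigp1, Irgm1, Irgm2, Gbp2, Gbp3, Gbp5 and Gbp7, and each was read from its probe set with the highest mean. Of these 8 genes, 7 were measured, 4 IRGs and 3 GBPs, among 19505 named genes on the array. Gbp5 had no named probe set and was not analysed here. The groups were tumors labelled HIFU at 24 h, 48 h and 72 h and untreated control tumors, with 3 arrays per group and 12 in all. All tumors came from neuroblastoma cells inoculated into A/J mice, an inbred strain with its own immune system, so host cells could contribute RNA to every sample. Titles say at, and treatment labels for, the given hours, and the times are taken here, as an assumption, to count from HIFU. No label says that samples of a group came from separate animals, so every p-value reflects the spread between samples alone, which may be partly technical.

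In mice the IRGs act on the membranes around intracellular parasites and bacteria. Effector IRGs such as Iigp1 (also called Irga6) load onto those membranes and disrupt them, while the regulators Irgm1, Irgm2 and Igtp (also called Irgm3) sit on the cell's own membranes and hold the effectors inactive there. GBPs coat pathogen vacuoles and bacteria, and they bring bacterial lipopolysaccharide to inflammatory caspases. Interferon-gamma acts through its receptor and the kinases Jak1 and Jak2 on genes with GAS elements in their promoters. It also induces Irf1, a transcription factor that binds ISRE elements, which are known from the promoters of these GTPase genes.

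Promoters of measured genes are shown because letter patterns like ISRE elements, and in some of the genes also like GAS elements, lay close to the transcription start. RefSeq (GRCm38.p6) windows of 300 bases, 250 before and 50 after the start, were matched by symbol for 6 of the 7 measured genes, all but Iigp1. The 120 bases before each start are printed 5′ to 3′ on the strand of the gene. Capitals mark 2 patterns. The first, called ISRE-like, is GAAA followed after any 2 bases by a second GAAA, or on the opposite strand TTTC followed after any 2 bases by a second TTTC. The other, called GAS-like, is TTCNNNGAA, where N is any base, which reads the same on both strands. Both strands were searched. For Irgm1 and Gbp3 the capitals are 2 ISRE-like matches that overlap.
Igtp, chr11:58199436-58199555, plus strand: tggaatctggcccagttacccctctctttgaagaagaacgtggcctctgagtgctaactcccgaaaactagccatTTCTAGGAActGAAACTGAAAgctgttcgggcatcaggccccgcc
Irgm2, chr11:58214857-58214976, plus strand: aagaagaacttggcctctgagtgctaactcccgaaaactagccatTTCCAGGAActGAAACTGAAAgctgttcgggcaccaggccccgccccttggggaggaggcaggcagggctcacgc
Irgm1, chr11:48871421-48871540, minus strand: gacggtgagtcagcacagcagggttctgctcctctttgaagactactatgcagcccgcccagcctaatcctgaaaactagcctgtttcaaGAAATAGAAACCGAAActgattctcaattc
Gbp2, chr3:142620543-142620662, plus strand: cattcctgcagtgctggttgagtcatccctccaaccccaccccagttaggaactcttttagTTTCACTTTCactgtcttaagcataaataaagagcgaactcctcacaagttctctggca
Gbp3, chr3:142559924-142560043, plus strand: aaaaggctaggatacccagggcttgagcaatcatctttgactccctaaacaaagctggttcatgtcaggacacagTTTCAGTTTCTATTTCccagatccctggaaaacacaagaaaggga
Gbp7, chr3:142530216-142530335, plus strand: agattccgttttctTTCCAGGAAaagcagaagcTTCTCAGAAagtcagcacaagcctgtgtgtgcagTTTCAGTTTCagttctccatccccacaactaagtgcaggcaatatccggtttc

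An ISRE-like match stood in the windows of 6 of 6 of these genes, against 1079 of 27025 genes with a window (3.99%). A GAS-like match stood in 3 of 6, Igtp, Irgm2 and Gbp7, against 2582 of all genes (9.55%). Both patterns stood in those same 3 genes, against 166 of all genes (0.614%). Gbp3 has a second window in the table, for another start, which held no ISRE-like match. A match is a description of letters and not a shown binding site. Igtp and Irgm2 are neighbours on chromosome 11, and their windows had 184 of 270 aligned bases identical (68.1%) when shifted by 30 bases, so their matches are not independent. In both of them the GAS-like match ended 2 bases before the ISRE-like match. The joined pattern, a GAS-like match followed after exactly 2 bases by an ISRE-like match, was chosen after these positions were seen. It was found in 5 of 27025 genes (0.0185%) on either strand: Igtp, Irgm2, Tgtp1, Tgtp2 and Gm12185. All 5 lie on chromosome 11 and were listed here among the IRG and GBP genes.

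**Figure D1:**
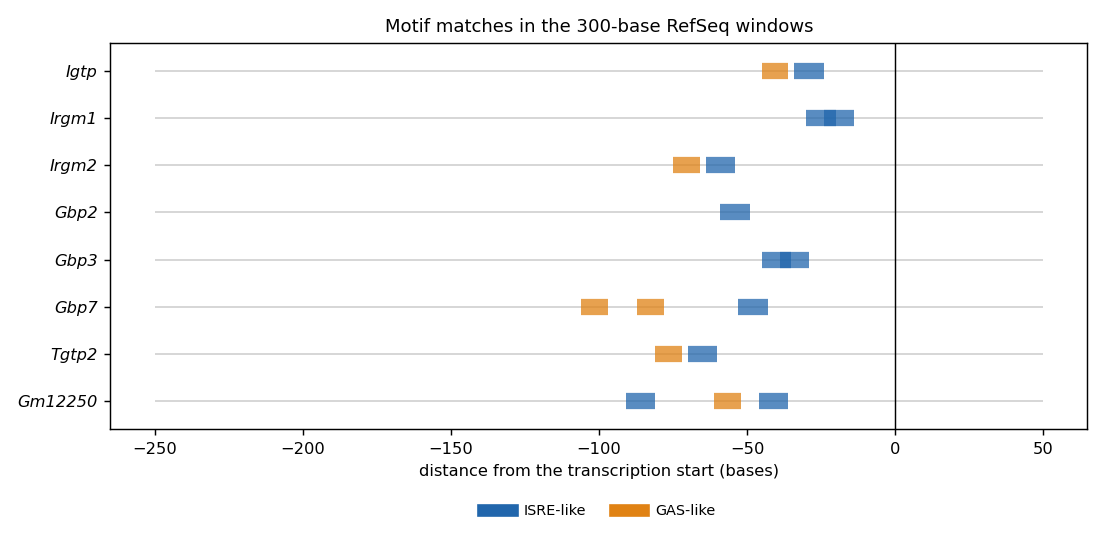
Positions of ISRE-like (blue) and GAS-like (orange) matches in the 300-base RefSeq windows of 6 measured genes and of their relatives Tgtp2 and Gm12250. The x axis is the distance from the transcription start in bases, and darker blue marks overlapping matches. The ISRE-like matches of the 6 genes lay within 64 bases before the start, and Gbp7 was the 1 of the 6 with 2 GAS-like matches.

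Signals are given on the log2 scale for each probe set, and a difference is a difference of such signals. Array medians lay between 5.43 and 5.68, and correlations between arrays across 22206 probe sets lay between 0.915 and 0.993. The sympathetic markers Chgb, Dbh, Th, Isl1 and Hand2 were present, with mean signals of 16.3, 14.9, 12.2, 12.2 and 10.3. Of the 12 neuroblastoma markers listed, 9 were measured, and those just named had the highest means. Chga, Phox2a, Ddc and Hand1 had mean signals of 9.7, 8.7, 5.4 and 4.4. All 7 GTPase genes had a mean signal above the lowest 25% of probe sets.

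Each of the 7 described genes averaged less RNA in HIFU tumors at 24 h than in untreated tumors. Each of the 3 arrays at 24 h lay below each of the 3 controls for 7 of 7 genes, an arrangement that 7.68% of all probe sets showed. The median difference of the 7 genes was -4.14, or 17.6-fold lower, against a median of 0 over all probe sets. All 7 had an unadjusted p under 0.05 in that direction, as did 5.86% of probe sets. None passed the adjusted threshold of 0.05 (limma, adjusted p between 0.124 and 0.301), which 0.0045% of probe sets passed in that direction. The differences thus missed the threshold once p-values were adjusted over all probe sets. The mean signals then stood higher at each later time and highest in controls for 7 of 7 genes, an order that 1084 of 22206 probe sets had (4.88%). In bulk tissue, fewer cells of a type and less RNA per cell cannot be told apart.

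**Figure D2:**
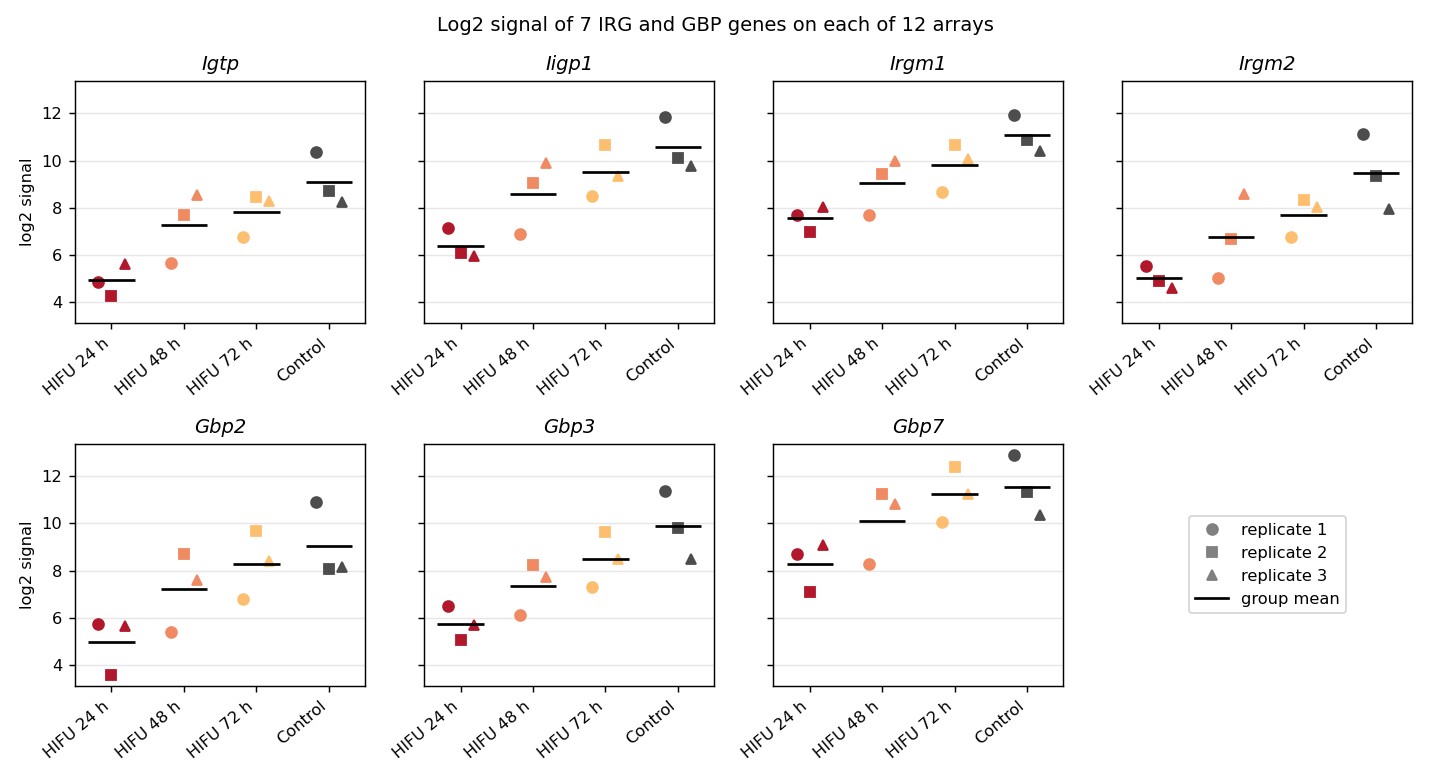
Log2 signal (y axis) of the 7 measured genes on each array, in HIFU tumors at 24, 48 and 72 h and in control tumors (x axis). Symbols mark replicates 1 to 3, and black lines are group means. In each panel all 3 arrays at 24 h lie below all 3 controls, replicate 1 is the lowest array at 48 h and at 72 h, and control replicate 1 is the highest array.

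Among the regulators, Igtp encodes a GTPase of the endoplasmic reticulum that mice need for resistance to Toxoplasma. Igtp (probe set TC1100004265.mm.2) had signals of 4.88, 4.29 and 5.62 at 24 h, 5.66, 7.68 and 8.54 at 48 h and 6.77, 8.44 and 8.28 at 72 h, against 10.35, 8.70 and 8.23 in controls. The 24 h arrays stood apart from the controls, while the 48 h and 72 h arrays overlapped them. Igtp averaged 4.93 ± 0.67 at 24 h and 9.09 ± 1.11 in controls (SD, n = 3 each), a difference of -4.16 ± 0.76 SE or 17.9-fold lower (95% interval -5.83 to -2.49; limma, adjusted p = 0.124). It was the 1 gene of the 7 whose 3 arrays at 48 h all lay above its 3 arrays at 24 h, an arrangement of 3.43% of probe sets.

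Irgm1 encodes a regulator that mice need for defence against mycobacteria and that bears on autophagy. Irgm1 (TC1100002641.mm.2) had signals of 7.69, 6.96 and 8.04 at 24 h, 7.71, 9.43 and 10 at 48 h and 8.68, 10.65 and 10.07 at 72 h, against 11.94, 10.85 and 10.40 in controls. All arrays at 24 h and at 48 h lay below the controls, and HIFU_72h replicate 2 reached into the control range. Irgm1 averaged 7.56 ± 0.55 at 24 h and 11.06 ± 0.79 in controls (SD, n = 3 each), a difference of -3.50 ± 0.65 SE or 11.3-fold lower (95% interval -4.93 to -2.07; limma, adjusted p = 0.124). At 48 h the difference was -2.02 ± 0.65 SE (limma, adjusted p = 0.259).

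Irgm2 encodes a regulator of the Golgi membrane that restrains the response of caspase-11 to bacterial lipopolysaccharide. Irgm2 (TC1100004266.mm.2) had signals of 5.56, 4.91 and 4.59 at 24 h, 5.02, 6.68 and 8.57 at 48 h and 6.75, 8.34 and 8.03 at 72 h, against 11.11, 9.33 and 7.94 in controls. The controls spread over more than 3 log2 units, and 1 array at 48 h and 2 arrays at 72 h lay above the lowest of them. Irgm2 averaged 5.02 ± 0.49 at 24 h and 9.46 ± 1.59 in controls (SD, n = 3 each), the difference of greatest size among the 7 genes, at -4.44 ± 0.90 SE or 21.7-fold lower (95% interval -6.41 to -2.47; limma, adjusted p = 0.160). Without control replicate 1 it was -3.62, and without control replicate 3 it was -5.20.

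Iigp1 is the effector among the IRGs measured here, and its protein is one of those that load onto the Toxoplasma vacuole. Iigp1 (TC1800000610.mm.2) had signals of 7.15, 6.09 and 5.98 at 24 h, 6.88, 9.05 and 9.88 at 48 h and 8.49, 10.65 and 9.35 at 72 h, against 11.83, 10.09 and 9.78 in controls. The 24 h arrays lay clear of the controls, and 1 array at 48 h and 1 at 72 h exceeded the lowest control. Iigp1 averaged 6.41 ± 0.65 at 24 h and 10.57 ± 1.10 in controls (SD, n = 3 each), a difference of -4.16 ± 0.80 SE or 17.9-fold lower (95% interval -5.91 to -2.41; limma, adjusted p = 0.134). The effector and the 3 regulators thus differed from control by -3.50 to -4.44, with intervals that overlap.

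The 3 measured GBPs lie in 1 cluster on chromosome 3 together with Gbp5 and Gbp2b, and their sequences are alike, so a signal may include RNA of a relative. Gbp2, whose protein coats parasite vacuoles and bacteria, had signals on TC0300001447.mm.2 of 5.72, 3.59 and 5.64 at 24 h, 5.38, 8.68 and 7.58 at 48 h and 6.78, 9.67 and 8.41 at 72 h, against 10.91, 8.07 and 8.14 in controls. All of its 24 h arrays lay below the controls, with HIFU_24h replicate 2 about 2 log2 units under the other two. Gbp2 averaged 4.98 ± 1.21 at 24 h and 9.04 ± 1.62 in controls (SD, n = 3 each), a difference of -4.06 ± 1.04 SE or 16.6-fold lower (95% interval -6.34 to -1.77; limma, adjusted p = 0.274).

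Gbp3 (TC0300001446.mm.2) had signals of 6.51, 5.05 and 5.71 at 24 h, 6.10, 8.23 and 7.73 at 48 h and 7.32, 9.64 and 8.48 at 72 h, against 11.38, 9.82 and 8.48 in controls. Besides Irgm1 it was the other gene whose arrays at both 24 h and 48 h all lay below the controls. Gbp3 averaged 5.76 ± 0.73 at 24 h and 9.89 ± 1.45 in controls (SD, n = 3 each), a difference of -4.14 ± 0.80 SE or 17.6-fold lower (95% interval -5.89 to -2.38; limma, adjusted p = 0.134). At 48 h it was -2.54 ± 0.80 SE (limma, adjusted p = 0.253).

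Gbp7 encodes a GBP that promotes assembly of the phagocyte oxidase on pathogen vacuoles. Gbp7 (TC0300001445.mm.2) had signals of 8.68, 7.09 and 9.09 at 24 h, 8.26, 11.23 and 10.81 at 48 h and 10.07, 12.39 and 11.25 at 72 h, against 12.90, 11.31 and 10.35 in controls. The gap between the highest 24 h array and the lowest control was narrower than for the other genes, and 2 arrays at 72 h lay above control replicate 3. Gbp7 averaged 8.29 ± 1.06 at 24 h and 11.52 ± 1.29 in controls (SD, n = 3 each), the difference of smallest size among the 7 genes, at -3.23 ± 0.90 SE or 9.40-fold lower (95% interval -5.21 to -1.26; limma, adjusted p = 0.301).

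At 48 h the differences from control were smaller and the groups mostly overlapped. The median of the 7 genes was -1.96, or 3.90-fold lower, against 0.01 over all probe sets. The differences were -2.70 for Irgm2, -2.54 for Gbp3, -2.02 for Irgm1, -1.96 for Iigp1, -1.83 for Gbp2, -1.80 for Igtp and -1.42 for Gbp7, with SE between 0.65 and 1.04. None of the 7 passed the test (limma, adjusted p between 0.253 and 0.520), as for 0% of probe sets in that direction, while 5 had an unadjusted p under 0.05, against 8.01% of probe sets. All arrays lay below all controls for 2 of 7 genes, against 11.7% of probe sets. With 1 array fewer such a count can only stay or rise. It was 6 of 7 without control replicate 3, against 19.8% of probe sets, and 5 of 7 without HIFU_48h replicate 3, against 19.2%. HIFU_48h replicate 1 was the lowest array of its group for 7 of 7 genes. Replicate 3 was the highest for the 4 IRGs, and replicate 2 was the highest for the 3 GBPs, a split noticed after the values were seen. It did not hold throughout their relatives. Gbp8 and Gbp9 were highest in replicate 2, but Gbp4 in replicate 3 (11.3, against 11 in replicate 2). Of the other relatives, Tgtp2, Gm12250 and Irgq were highest in replicate 3 and Irgc1 in replicate 1. Gm4951, Gm5431, Gvin1, F830016B08Rik, 9930111J21Rik1 and 9930111J21Rik2 were highest in replicate 2.

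At 72 h the 7 genes still averaged below control, by less. The median was -1.26, or 2.40-fold lower, against -0.06 over all probe sets. The differences were -1.75 for Irgm2, -1.41 for Gbp3, -1.26 for both Igtp and Irgm1, -1.07 for Iigp1, -0.75 for Gbp2 and -0.28 for Gbp7. None of the 7 passed the test (limma, adjusted p between 0.497 and 0.950), as for 0% of probe sets in that direction, and 0 of 7 had an unadjusted p under 0.05, against 5.39% of probe sets. All arrays lay below all controls for 0 of 7 genes, against 10.1% of probe sets. Without control replicate 3 that count was 4, against 20.2% of probe sets, and without HIFU_72h replicate 2 it was 2, against 14.1%. The signs for Gbp2 and Gbp7 turn without control replicate 1 (0.18 and 0.41), and that for Gbp7 also without HIFU_72h replicate 1 (0.30).

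**Figure D3:**
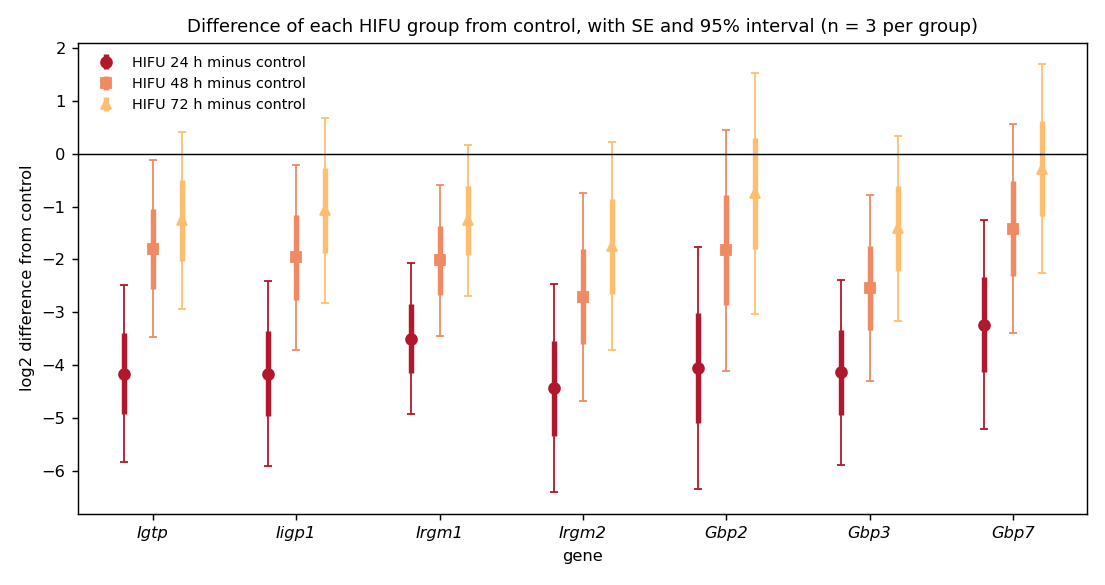
Log2 difference from control (y axis) of each gene (x axis) at 24, 48 and 72 h, with 3 arrays per group. Points are differences, thick bars 1 SE and thin bars 95% intervals. At 24 h the points lie between -4.44 and -3.23 with every interval below 0, and at 72 h between -1.75 and -0.28 with every interval across 0.

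Between treated groups, the genes were higher at 72 h than at 24 h. All 3 arrays at 72 h lay above all 3 at 24 h for 7 of 7 genes, against 4.53% of probe sets. The median difference was 2.90 (range 2.24 to 3.30), against -0.04 over all probe sets. All 7 had an unadjusted p under 0.05, as did 3.22% of probe sets in that direction, and 0 of 7 passed the test (limma, adjusted p between 0.621 and 0.827). The step between 24 h and 48 h had a median of 1.81 and that between 48 h and 72 h one of 0.95, and 0 genes passed in either (limma, adjusted p of 0.999 for the first and between 0.864 and 0.932 for the second). The 24 h arrays enter both the comparison with 72 h and that with control, so these 2 results share samples. Neighbouring times could not be ordered by the adjusted test. The mean of the 3 HIFU groups differed from control by -2.97 to -1.65 with a median of -2.40, and all 7 genes had an unadjusted p under 0.05, against 8.59% of probe sets, with none passing the test (limma, adjusted p between 0.129 and 0.336).

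The 7 genes varied together between arrays, also inside groups. Over the 12 arrays, Pearson's r for the 21 gene pairs lay between 0.875 and 0.985, with a median of 0.949. For deviations from the group means it lay between 0.708 and 0.979, with a median of 0.882. The pair most alike was Igtp with Irgm1, at 0.985 over signals and 0.979 over deviations. The pair least alike was Irgm2 with Gbp2, at 0.875 and 0.708. Over deviations, the 3 pairs of GBPs lay between 0.926 and 0.963, the 6 pairs of IRGs between 0.859 and 0.979, and the 12 mixed pairs between 0.708 and 0.951. All pairs share the same 12 arrays, and the GBP probe sets may share target RNA.

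The pattern was also set against other named genes with a mean signal above the lowest 25%. Left out of this ranking were the other IRG and GBP genes and the listed interferon-gamma, inflammasome and autophagy genes described below. The 10 genes with the highest r to the mean of the 7 were H2-K1 (0.958), Psmb9 (0.953), Parp12 (0.952), Psmb8 (0.951), Tap1 (0.950), Oasl2 (0.949), Dtx3l (0.945), Cxcl9 (0.943), H2-T-ps (0.942) and Calhm6 (0.940), over 12 arrays. H2-K1 encodes an MHC class I heavy chain, Psmb8 and Psmb9 immunoproteasome subunits, Tap1 a peptide transporter and Cxcl9 a chemokine for activated T cells. At 24 h, Cxcl9 differed from control by -5.27, Oasl2 by -3.53, Tap1 by -2.93 and H2-K1 by -2.02. The 10 genes were picked by likeness over these same arrays, so lower values at 24 h follow largely from the choice. None of the 10 passed the test (limma, adjusted p between 0.0931 and 0.316).

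Marker genes of host and tumor cells varied between arrays, and their values stand beside the GTPase results. Relative to the control mean, the median of the 7 GTPase genes was -3.38, -4.55 and -3.47 on the arrays at 24 h, -3.66, -1.52 and -0.89 at 48 h and -2.32, -0.25 and -0.99 at 72 h, against 1.38, -0.21 and -0.90 in controls. The median of 6 pan-leukocyte genes (Ptprc, Cd53, Laptm5, Coro1a, Cd52 and Rac2) was 0.08, -2.27 and -0.12 at 24 h, -1.35, 1.61 and -0.66 at 48 h and 0.56, 3.69 and 0.71 at 72 h, against 1.02, -0.83 and -0.06 in controls. HIFU_24h replicates 1 and 3 thus had leukocyte medians inside the control range and GTPase medians more than 3 log2 units below the control mean. HIFU_72h replicate 2, the array with the highest leukocyte and macrophage medians, was the highest of its group for 7 of 7 GTPase genes. The median of 11 macrophage genes was 1.46, -1.64 and 1.33 at 24 h, against 0.51, -0.62 and 0.05 in controls. The median of 9 neuroblastoma genes was -0.05, 1.39 and -0.18 at 24 h and 1.07, -0.11 and 1.29 at 48 h. At 72 h it was 0.18, -1.27 and 1.08, against -1.48, 0.02 and 1.44 in controls. Control replicate 1, the highest array for 7 of 7 GTPase genes, thus had the lowest neuroblastoma median. Its relation to the GTPase values was not tested.

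With the leukocyte median as a covariate, the differences at 24 h lay between -4.25 and -2.71, and 7 of 7 genes passed (limma, adjusted p between 0.00544 and 0.0247), against 2.85% of probe sets lower. In that model the slope on the leukocyte median was 0.79 ± 0.16 SE for Gbp2, 0.61 ± 0.16 for Gbp7 and 0.50 ± 0.16 for Gbp3, against 0.40 ± 0.18 for Iigp1, 0.35 ± 0.14 for Irgm1, 0.34 ± 0.18 for Igtp and 0.22 ± 0.23 for Irgm2. Among the 7 genes, the 3 GBP slopes were above the 4 IRG slopes, and these differences between genes were not tested. Their relatives overlapped more. The slope was 0.68 ± 0.21 for Gbp4, 0.65 ± 0.14 for Gbp9 and 0.49 ± 0.08 for Gbp8. It was 0.51 ± 0.30 for the IRG Tgtp2 and 0.34 ± 0.17 for the IRG Gm12250. For 9930111J21Rik1 and 9930111J21Rik2 it was 0.84 ± 0.09 and 0.82 ± 0.11, above the 3 GBP slopes of the 7 genes. Gm5431, Gvin1, F830016B08Rik and Gm4951 had slopes of 0.64 ± 0.11, 0.64 ± 0.09, 0.57 ± 0.14 and 0.52 ± 0.15. Irgq and Irgc1 had slopes of -0.08 ± 0.07 and -0.05 ± 0.06. At 72 h the differences with this covariate lay between -2.29 and -1.34, and 0 of 7 passed (limma, adjusted p between 0.312 and 0.608). Between 72 h and 24 h the median difference was 1.42 with it, against 2.90 without it.

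T and NK cells are the main source of interferon-gamma, and 13 of 15 of their listed markers were measured. Their median lay at -0.69, -1.07 and -0.44 at 24 h, -0.58, -0.41 and -0.37 at 48 h and -0.67, 0.11 and -0.50 at 72 h, against 0.31, -0.44 and 0.003 in controls. Their median signal was low, 3.04 to 3.86 at 24 h against 3.67 to 4.57 in controls. At 24 h 12 of the 13 markers averaged below control, 3 had all arrays below all controls, against 7.68% of probe sets, and 0 passed the test. Their part in the GTPase result was not tested.

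Skeletal muscle genes had medians above the control mean on all 9 HIFU arrays, and 0 of 18 passed the test at any time. Of 22206 probe sets, 11, 1 and 2 passed higher at 24, 48 and 72 h. All arrays lay above all controls for 12 of 18 muscle genes at 24 h, against 6.84% of probe sets. At 48 h this held for 16, against 10.3%, and at 72 h for 8, where the share is not given here. The median of 18 such genes was 5.62, 2.39 and 3.21 at 24 h, 3.40, 4.52 and 3.11 at 48 h and 2.26, 5.89 and 3.00 at 72 h, against -1.45, -0.53 and 2.20 in controls. Control replicate 3 thus came near the treated arrays, and it was the lowest control for 6 of 7 GTPase genes. With the muscle median as a covariate, the differences at 24 h lay between -4.99 and -3.69, and 0 of 7 passed (limma, adjusted p between 0.861 and 0.950), against 0% of probe sets lower. Without control replicate 3, Igtp, Iigp1, Irgm1, Irgm2 and Gbp3 passed at 24 h, 5 of 7 genes against 0.905% of probe sets, with a median difference of -4.55. With array weights 6 of 7 passed, all but Gbp2, against 2.64% of probe sets. At 48 h, Gbp3 alone passed with the leukocyte covariate (limma, adjusted p = 0.0398), against 1.32% of probe sets, and with array weights (limma, adjusted p = 0.0457), against 2.85%. For the mean of the 3 HIFU groups, 6 of 7 passed with the leukocyte covariate, against 2.13% of probe sets, 6 with array weights, against 9.87%, and 2, Irgm2 and Gbp3, without control replicate 3, against 1.37%.

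**Figure D4:**
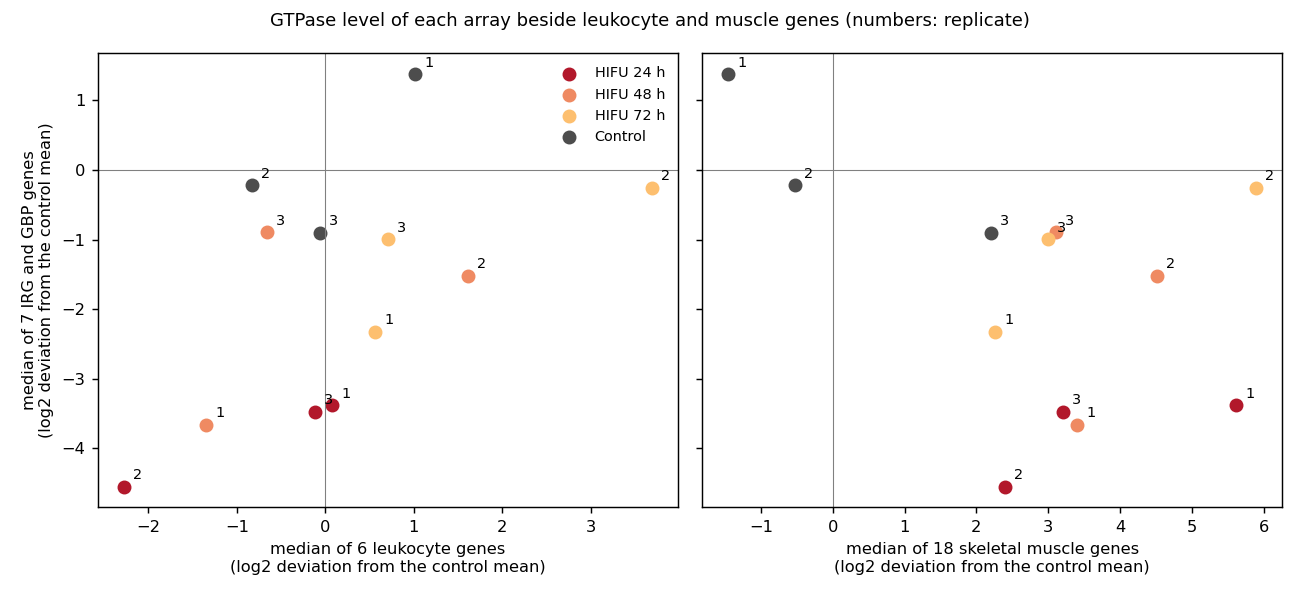
Median of the 7 GTPase genes on each array (y axis) beside the median of 6 leukocyte genes (left x axis) and of 18 skeletal muscle genes (right x axis), all as log2 deviations from the control mean. Colours are groups and numbers are replicates. HIFU_24h replicates 1 and 3 have leukocyte medians of 0.08 and -0.12, inside the control range, with GTPase medians of -3.38 and -3.47, and control replicate 3 lies near the treated arrays in muscle genes, at 2.20.

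Of 25 other IRG and GBP genes listed, 13 were measured. At 24 h, 12 of the 13 averaged below control, with a median of -1.26, 6 had all arrays below all controls, against 7.68% of probe sets, and 0 passed the test. Tgtp2, an effector IRG, had signals of 6.60, 5.11 and 7.52 at 24 h, 6.38, 9.87 and 11.50 at 48 h and 9.01, 11.28 and 11.22 at 72 h, against 14.33, 12.56 and 10.83 in controls. Its 24 h arrays all lay below the controls, by a mean of -6.16 ± 1.25 SE or 71.7-fold (limma, adjusted p = 0.160). Tgtp2 has a near-identical copy, Tgtp1, so the probe set may read both. The other 5 were Gbp4 (-3.86), Gm12250 (-3.55), which encodes the effector Irgb10, Gm4951 (-2.89), Gbp8 (-2.37) and Irgq (-0.53).

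The arrays at 24 h overlapped the controls for the remaining 7 relatives, with differences from control that put Gbp9 at -2.0, 9930111J21Rik1 at -1.26, Gm5431 at -1.05, 9930111J21Rik2 at -1.01, Gvin1, which encodes a very large inducible GTPase, at -0.66, F830016B08Rik at -0.05 and Irgc1 at 0.25. Irgc1 is known from testis and is not induced by interferon in mice, and its mean signal of 2.65 was among the lowest 25%. F830016B08Rik is the neighbour of Iigp1 on chromosome 18, and it lay at 8.89, 6.57 and 6.56 at 24 h and 8.38, 10.40 and 7.98 at 48 h, against 7.46, 7.22 and 7.49 in controls. It was the 1 relative with all 48 h arrays above all controls, by 1.53, an arrangement of 10.3% of probe sets. The median of the 13 was -0.71 at 48 h, with 10 lower, and -0.25 at 72 h, with 8 lower. No relative passed the test at 48 h or 72 h.

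**Figure D5:**
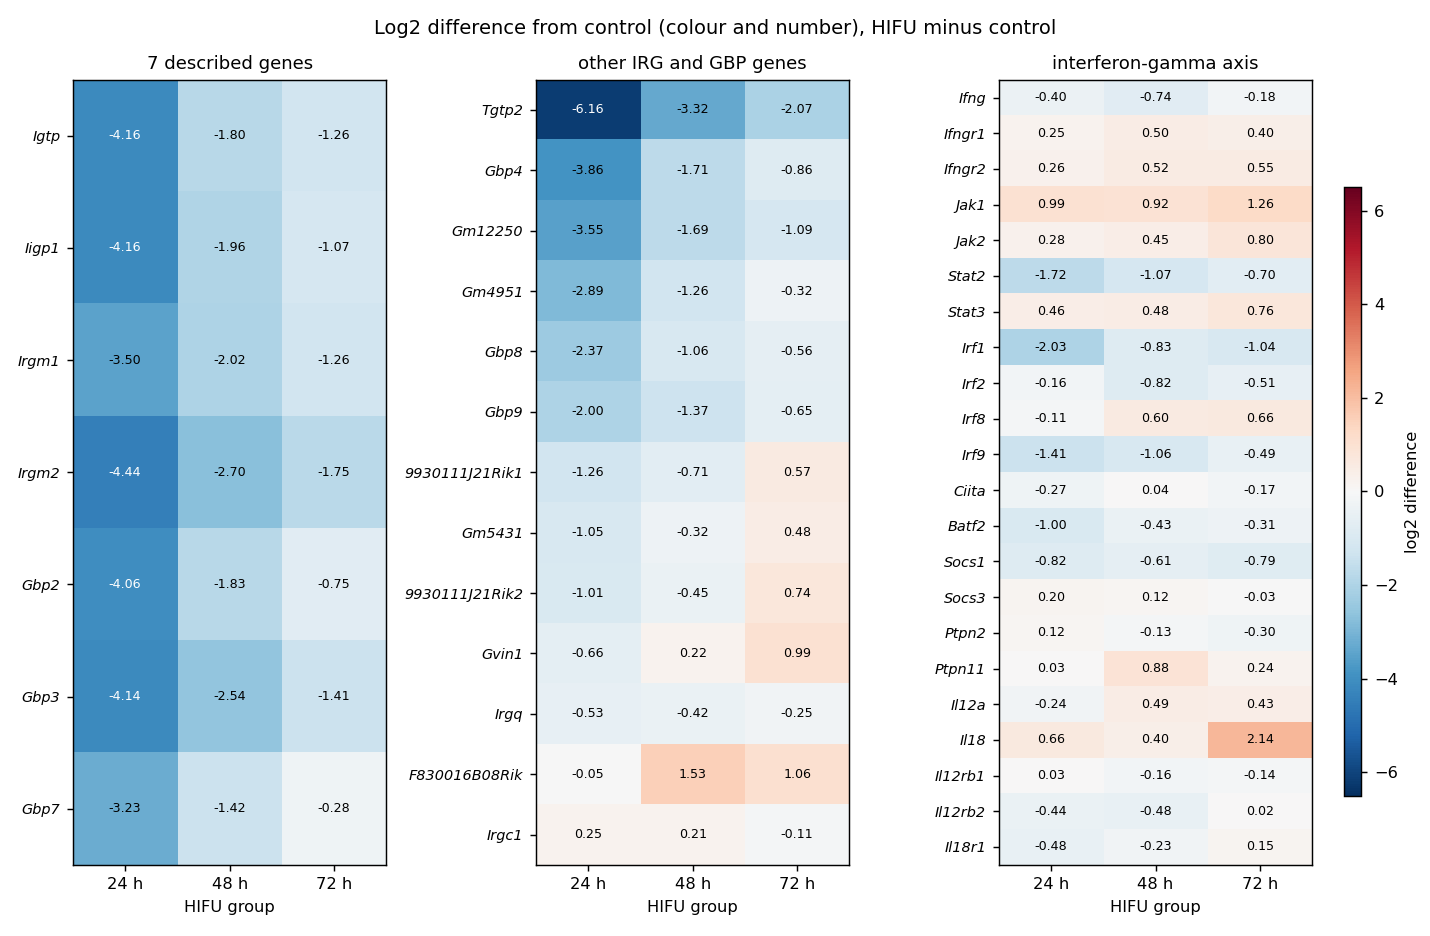
Log2 difference from control (colour and printed number) at 24, 48 and 72 h (x axis) for the 7 described genes, 13 other IRG and GBP genes and 22 genes of interferon-gamma signalling (y axis, 1 gene per row). Blue is lower than control and red is higher. Tgtp2 is the lowest cell at -6.16, and the signalling genes have medians near 0 at each time.

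Of 25 listed genes of interferon-gamma signalling, 22 were measured, and the list as a whole lay near control. Its medians were -0.13, -0.05 and -0.003 at 24, 48 and 72 h. At 24 h 12 were lower and 10 higher, 6 had all arrays below the controls, 1 had all above, against 7.68% and 6.84% of probe sets, and 0 passed the test. Ifng, the ligand, had signals of 4.54, 4.40 and 4.36 at 24 h, 3.43, 4.47 and 4.39 at 48 h and 4.47, 4.58 and 4.92 at 72 h, against 5.74, 4.45 and 4.32 in controls. Apart from the 5.74 of control replicate 1 and the 3.43 of HIFU_48h replicate 1, the Ifng arrays lay within 4.32 to 4.92, and 40.2% of probe sets had a lower mean. Control replicate 1 was also the highest array for 7 of 7 GTPase genes.

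The receptor and kinase genes lay at or above control at 24 h, with differences of 0.26 for Ifngr2 and 0.99 for Jak1. Irf1, the transcription factor that binds ISRE elements, had signals of 8.41, 7.66 and 8.84 at 24 h, 8.46, 10.21 and 9.83 at 48 h and 8.70, 9.58 and 9.59 at 72 h, against 11.04, 10.15 and 9.81 in controls. Its 24 h and 72 h arrays lay below the controls, by means of -2.03 ± 0.50 SE and -1.04 ± 0.50 SE (limma, adjusted p = 0.254 and 0.463). The factors Irf8 and Ciita, which serve myeloid cells and MHC class II genes, differed by -0.11 and -0.27 at 24 h. The repressor Irf2, the signal transducer Stat3 and the phosphatase Ptpn2 differed by -0.16, 0.46 and 0.12.

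Named after their values were seen, Stat2 and Irf9, partners in the type I interferon response, differed by -1.72 ± 0.45 SE and -1.41 ± 0.37 SE at 24 h (limma, adjusted p = 0.282 and 0.274). Socs1, an inhibitor of the pathway that interferon itself induces, lay at 3.55, 3.48 and 3.65 at 24 h, 3.63, 3.79 and 3.90 at 48 h and 3.49, 3.68 and 3.60 at 72 h, against 4.33, 4.38 and 4.43 in controls. It was below the controls on all 9 HIFU arrays, by -0.82, -0.61 and -0.79 at the 3 times (limma, adjusted p = 0.204, 0.228 and 0.255). Taken 1 time after another, 7.68%, 11.7% and 10.1% of probe sets had all arrays below all controls. The share for all 9 arrays together is not given here. Socs1 signals were low, with a mean of 3.83, near the 3.55 that bounds the lowest 25% of probe sets.

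Genes that act with the GTPases lay on both sides of control at 24 h. Of 19 inflammasome and pyroptosis genes, 17 were measured, with a median of 0.11 at 24 h, 8 lower and 9 higher, and 0 passed the test. By level, the first 6 were Ninj1, which ruptures the membrane of dying cells, at 0.33, Casp8 at 1.57, Il1b at 0.84, the DNA sensor Ifi204 at 0.37, Casp4, the mouse caspase-11 gene, at -0.03 and Casp1 at -0.50. At 72 h the median was 0.78, with 3 lower and 14 higher, and 0 passed. The median difference over 10 neutrophil markers was 1.48 at 24 h and 6.98 at 72 h. At either time 0 of 10 passed the test, while 11 and 2 of 22206 probe sets passed higher. At 24 h 4 of 10 had all arrays above all controls, against 6.84% of probe sets. At 72 h 10 of 10 did, and the share of probe sets is not given here. The part of the neutrophil markers in the inflammasome values was not tested.

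Of 17 genes for autophagy and the ubiquitin-like conjugation that directs IRGs and GBPs to membranes, 16 were measured. The median was 0.15 at 24 h, 0.005 at 48 h and 0.04 at 72 h, and 0 passed the test at any time. The 6 with the highest signals were Gabarap at 0.32, the cargo receptor Sqstm1 at 1.37, Map1lc3b at 0.24, Atg3 at 0.21, Atg12 at -0.22 and Gabarapl1 at 0.98 at 24 h. Of these 16 genes, 6 were lower and 10 higher than control at 24 h.

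The promoter patterns were then set beside the differences at 24 h over all measured genes with a window. Among 618 genes with an ISRE-like match, 76 (12.3%) had all 24 h arrays below all controls, against 1193 of 15073 genes (7.91%) without one. Their median differences were -0.01 with a match and -0.003 without one. Among 1416 genes with a GAS-like match the share was 8.19%, against 8.08% of 14275 genes without one. Among 107 genes with both it was 16.8%. The joined pattern was held by 3 measured genes, Tgtp2, Irgm2 and Igtp, and all 3 lay below every control at 24 h, by -6.16, -4.44 and -4.16. The pattern was drawn from Irgm2 and Igtp, whose values were already known, and Tgtp2 is their relative. These 3 genes therefore give no separate evidence on the pattern. All shares in this paragraph include the described genes and are given with no test.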

How the data were processed

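Per the labels, RNA of 12 frozen tumors was measured on Mouse Clariom S arrays (Affymetrix), 1 sample per array. The values deposited by the authors are log2 signals for 22206 probe sets, between 1.75 and 19.93. The log base was read from that range, and every fold rests on it. The submitters' processing notes name Transcriptome Analysis Console 4.0. How probes were summarized and normalized, and the build, is not given in the sources used here. No further scaling was applied, so a shift common to all genes may have been removed. Arrays have no read depth, and their number limits the precision.

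Platform annotation gave 1 symbol to 19572 probe sets, several to 0 and none to 2634, and all 19572 were found in RefSeq. Each described gene had 1 probe set. Whether A/J alleles fit the probes was not checked.

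The R 4.3.3 package limma 3.58.1 fitted a mean per group to all 12 arrays, with eBayes moderation at 3.37 prior degrees of freedom. Tests were two-sided, with Benjamini-Hochberg adjusted p-values over 22206 probe sets and a threshold of 0.05. Errors are standard deviations for signals and limma standard errors for differences. Counts of arrays that do not overlap, list medians and correlations carry no test. On simulated data for 24 h minus control over 22206 genes, the share found was 16% of genes lowered by 1 log2 unit, 76% of those lowered by 2, 82% of those lowered by 4 and 96% of those lowered by 6, and 4 of 139 calls were false. For each size, 50 genes were drawn at random from all probe sets, with independent noise at each one's own spread. The 7 described genes had SE of 0.65 to 1.04 at 24 h and varied together. The shares therefore do not give how often these 7 genes would be found.

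The described genes, the companion lists and the markers were chosen with earlier results of these data known. Named genes were all described genes and their measured relatives, and up to 6 per companion list by mean signal with Ifng, Irf1, Irf8 and Ciita always. The 10 genes most alike in pattern outside these lists were also named. Exceptions are stated. For same-numbered samples of different groups, deviations had r between -0.608 and 0.625 (median -0.133, 18 pairs). For differently numbered samples r lay between -0.582 and 0.597 (median 0.082, 36 pairs). Deviations from a mean of 3 arrays are tied to each other, so these values cannot exclude a shared batch. No label pairs samples by number, and the main fit did not pair them. Alternatives were a replicate block, a filter on low signals, quantile normalization, median centring, trended robust variance, array weights, leukocyte and muscle covariates, only the groups compared, and leaving out each array. Promoter windows came from RefSeq (GRCm38.p6), searched with Python 3.11.15, and figures used matplotlib 3.10.9.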

Additional observations from a re-analysis of the deposited data

How the results depend on the processing

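None of the 7 genes passed at any time as the report tests them, and over all probe sets 12, 1 and 2 passed at 24, 48 and 72 h, 0 in each pair of times and 4 for HIFU groups averaged against control. With the replicate number as a block those counts were 3, 0, 1 and 1 (the last for the mean), and no gene of the 7 changed its call (limma, adjusted p between 0.289 and 0.490 at 24 h). Without the lowest 25% of signals 4 passed at 72 h and 15 for the mean, with quantile normalization 1 at 72 h, and with median centring or trended robust variance 14 for the mean. Array weights gave 1118, 944 and 1846 at the 3 times, 7 between 72 h and 24 h and 3787 for the mean. The muscle covariate gave 0, 0 and 1, and 1 for the mean. The leukocyte covariate gave 1390, 599 and 13, 8 between 72 h and 24 h and 1045 for the mean. Only the groups compared gave 6 at 48 h and 2 between 72 h and 24 h. Leaving out 1 array gave 0 to 253 at 24 h, 0 to 312 at 48 h, 1 to 194 at 72 h, 0 to 2 between 72 h and 48 h, 0 to 7 between 72 h and 24 h and 1 to 398 for the mean. The highest counts against control came without control replicate 3, and those between times without HIFU_48h replicate 3. All 7 differences at 24 h stayed negative under each alternative run. Genes with all arrays below all controls, whose count can only stay or rise with 1 array fewer, numbered 2 to 6 at 48 h and 0 to 4 at 72 h without 1 array, and 1 at 72 h with median centring. The median pairwise likeness was 0.909 as Spearman's rho. Some signs turned. Between 72 h and 48 h, Igtp and Gbp2 were at -0.026 and -0.21 with the leukocyte covariate, and Igtp spanned -0.28 to 1.16 without 1 array. Between 72 h and control, Gbp2 spanned -1.45 to 0.18 and Gbp7 -0.87 to 0.41 without 1 array, with Gbp7 at 0.30 without HIFU_72h replicate 1. The cause was not tested in any of these. The mean of several probe sets was not run, as each gene had 1, and the mean of HIFU has no value from only the groups compared. The number of arrays, 3 per group, limits the precision, and the 7 genes missed the threshold at 24 h with differences of -4.44 to -3.23 and SE of 0.65 to 1.04.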
